A study of Mus musculus with 2 samples.

Results

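Group 2 innate lymphoid cells (ILC2) made up 172 of the 19571 cecal CD45+ cells that could be assigned to 1 mouse, out of 23063 deposited barcodes. A cell was counted as an ILC2 when it held at least 1 UMI (1 counted RNA molecule) of Gata3 and at least 1 UMI of Il1rl1, Il17rb and Il5 together. It also had to hold no UMI of Cd3e, Cd3d, Foxp3, Cpa3, Cd79a or Csf1r, which mark T cells, regulatory T cells, mast cells, B cells and macrophages. The cells were therefore chosen by their own transcripts, and the levels of these genes are given as a description, without a test. Of the 172 cells, 37 came from Trpv1-ADC 1, 32 from Trpv1-ADC 2, 46 from CTRL 1 and 57 from CTRL 2.

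The study activated Trpv1+ neurons, pain-sensing neurons named after the capsaicin-gated channel, and profiled immune cells of the cecum at the head of the large intestine. The 2 Trpv1-ADC mice and their 2 littermate CTRL mice were male and 101 days old. The labels give both groups an adeno-associated virus, put into the abdominal cavity at birth, and 7 doses of CNO, the ligand of designer receptors, on alternate days. The strain label names Trpv1-WT.B6 and Trpv1-Cre.B6 for the whole run and does not tie either to a mouse. Dissociated cells were sorted for CD45, tagged with 1 DNA-coded antibody per mouse and pooled into 1 droplet run. The p-values between the groups below rest on the spread among these 4 animals. Those that compare cell types, with the mouse as a block, rest on how the difference within a mouse varies among the 4.

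ILC2 are tissue-resident lymphocytes without a rearranged antigen receptor. They answer alarm cytokines of the epithelium and stroma, IL-33 through the receptor Il1rl1 and IL-25 through Il17rb, and release IL-5, IL-13 and amphiregulin. In the gut and lung they also carry receptors for neuropeptides, of which neuromedin U (receptor Nmur1) is known to stimulate them and CGRP to restrain parts of their response. Gata3 is the transcription factor on which their identity depends.

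The mouse of origin of every ILC2 rests on a 15-base antibody tag. The tags are shown, 5′ to 3′, because each group value below depends on them.
Trpv1-ADC 1, hashtag 7: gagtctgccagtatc
Trpv1-ADC 2, hashtag 9: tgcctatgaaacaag
CTRL 1, hashtag 1: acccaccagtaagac
CTRL 2, hashtag 3: cttgccgcatgtcat
The median count of the own tag in an ILC2 was 405 in Trpv1-ADC 1, 580 in Trpv1-ADC 2, 1319 in CTRL 1 and 739 in CTRL 2. The next of these 4 tags had a median count of 17.0, 17.5, 13.5 and 18.0 in the same cells. The lowest own-tag count in any ILC2 was 34. Another 6 barcodes met the gene rule but carried no clear single tag and were left out.

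Il4, Il13 and Il5, the genes of the type 2 cytokines that the results return to, lie in the same region of mouse chromosome 11. The 150 bases before their start sites are given below, as RefSeq has them on GRCm38.p6, on the strand with the same sense as the RNA. Capitals mark a GATA-type motif, searched for on both strands as the word AGATAA, as the word AGATAG, as the word TGATAA or as the word TGATAG.
Il4, chr11:53618666-53618815, minus strand: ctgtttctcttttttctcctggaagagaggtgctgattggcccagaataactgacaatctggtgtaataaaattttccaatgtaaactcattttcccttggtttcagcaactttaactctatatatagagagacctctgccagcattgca
Il13, chr11:53634703-53634852, minus strand: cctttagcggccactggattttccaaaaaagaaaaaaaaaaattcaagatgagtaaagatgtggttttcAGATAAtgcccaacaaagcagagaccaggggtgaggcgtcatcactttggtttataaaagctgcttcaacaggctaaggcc
Il5, chr11:53720644-53720793, plus strand: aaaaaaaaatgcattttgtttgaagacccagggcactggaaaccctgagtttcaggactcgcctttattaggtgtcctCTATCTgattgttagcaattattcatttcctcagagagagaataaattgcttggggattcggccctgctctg
The Il13 stretch held 1 match that began at position -81 and the Il5 stretch 1 match that began at position -72. The Il4 stretch before the outermost start site held none, and the stretch before its second listed start site held 1, at position -80. Of all 32851 windows of this length in the table, 16.0% held a match. A match is a run of letters and does not show that Gata3 binds there.

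The depth behind these cells was modest. An ILC2 had 696 to 33430 UMIs with a median of 6452, against a median of 5776 over all assigned cells. Summed per mouse, ILC2 gave 268978 UMIs in Trpv1-ADC 1, 205674 in Trpv1-ADC 2, 445675 in CTRL 1 and 437885 in CTRL 2. Levels are given as CPM, the UMIs of a gene per 1000000 summed UMIs of the cell set in a mouse. The median mitochondrial share per ILC2 was 2.48% and 2.53% in the Trpv1-ADC mice and 2.61% and 2.46% in the CTRL mice.

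One feature separated the groups before any gene was tested. A list of 12 stromal, endothelial and neural markers, among them the collagen genes Col1a1, Col1a2 and Col3a1 and the proteoglycan gene Dcn, had at least 10 UMIs in 24 of the 172 ILC2. These cells numbered 3 and 1 in the Trpv1-ADC mice and 11 and 9 in the CTRL mice. Their median depth was 14605 UMIs, against 6193 for the other ILC2, and they supplied 27.5% of all ILC2 UMIs. The summed list stood at 1316 and 277 CPM in the Trpv1-ADC mice, against 4138 and 1756 CPM in the CTRL mice. The glial markers S100b and Sox10 were at 0 in ILC2. Over all assigned cells, 5.85% carried 10 or more such UMIs. By mouse these were 4.62% and 5.12% in the Trpv1-ADC mice, against 7.83% and 5.72% in the CTRL mice. The groups thus lay apart outside ILC2 as well. In NK cells and ILC1 the shares were 13.76% and 8.57% in the Trpv1-ADC mice, against 14.88% and 15.04% in the CTRL mice. In ILC3 the groups overlapped, at 15.38% and 22.58% against 9.09% and 26.32%. The part of the stroma-marked cells in the group results was not tested beyond the values without them that are given beside the results.

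**Figure D1:**
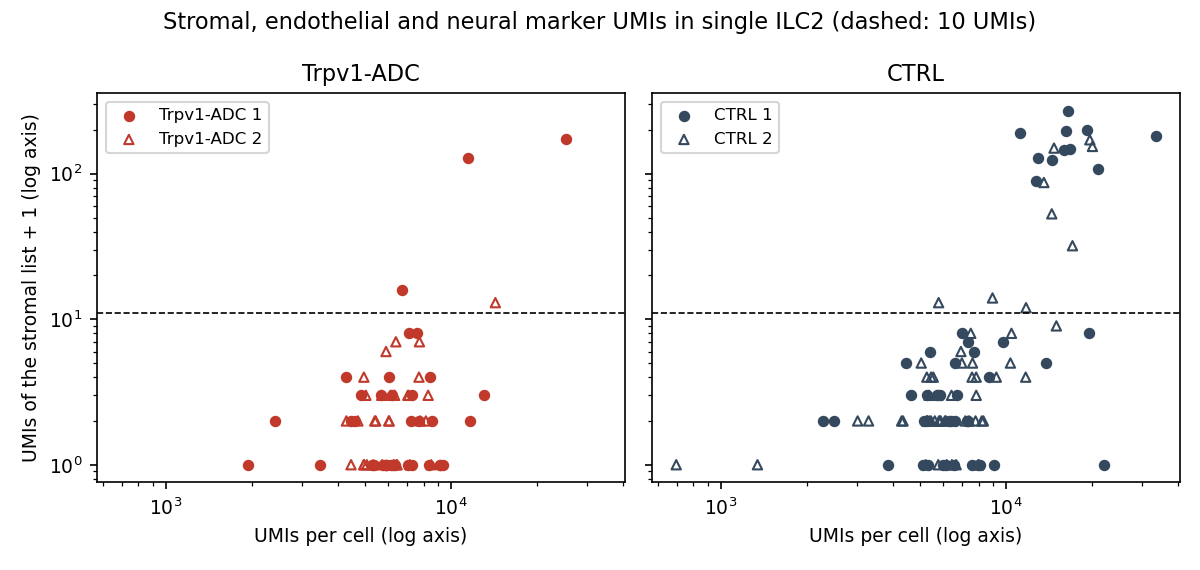
Total UMIs (x, log axis) and UMIs of the stromal, endothelial and neural marker list plus 1 (y, log axis) in single ILC2, with Trpv1-ADC cells on the left and CTRL cells on the right and a symbol for each mouse. The cells above the dashed line at 10 UMIs, 3 and 1 in the Trpv1-ADC mice and 11 and 9 in the CTRL mice, are mostly deep cells.

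The label was checked on markers that the rule did not use. Rora, a nuclear receptor needed for ILC2 development, had a UMI in 170 of the 172 cells. Il7r, the receptor for the lymphoid survival factor IL-7, was found in 94.2%, and Areg, the epidermal growth factor ligand amphiregulin, in 77.3%. The inhibitory lectin receptor Klrg1 was found in 66.3% and Il4 in 50.0%. In Cd79a+ CD3- cells of the same run, which should lack these genes, the shares were 8.99% for Rora, 8.91% for Il7r, 2.91% for Areg, 0.503% for Klrg1 and 0.503% for Il4, at a median depth of 4492.5 UMIs. All of these were thus far above the level of free RNA in the droplets.

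Other markers of the same list were scarce. Hpgds, the prostaglandin D2 synthase, had a UMI in 11.05% of ILC2 and in 2.04% of ILC3, with 25 and 2 UMIs in all. It was found in 19.1% of Cd79a+ CD3- cells, which therefore give no background level for it. Ptgdr2, the prostaglandin D2 receptor often used to sort ILC2, had 0 UMIs in all 4 mice. With 1358212 UMIs in all, a count of 0 allows up to 2.21 CPM (3 counts, counting error only).

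Markers of other lineages were low, with exceptions. Cd3g was found in 9.30% of ILC2 and Trac, the T cell receptor alpha constant gene, in 5.23%, against 3.06% and 7.44% of Cd79a+ CD3- cells. Trbc1 and Trbc2, the constant genes of the T cell receptor beta chain, each had a UMI in 77.3% of ILC2, and Trbc1 also in 77.7% of NK cells and ILC1. Of 14 mast cell, basophil and eosinophil markers, 7 were at 0, among them Fcer1a, Ms4a2, Mcpt8, Epx and Prg2. Kit, which mast cells and many innate lymphoid cells share, was found in 73.3%. The ILC3 marker list summed to 1357 and 861 CPM in ILC2 of the Trpv1-ADC mice and to 1997 and 1242 CPM in ILC2 of the CTRL mice, against 3883 to 4753 CPM in ILC3. Of the 172 ILC2, 1 also passed the ILC3 gate. The label was kept on these values.

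**Figure D2:**
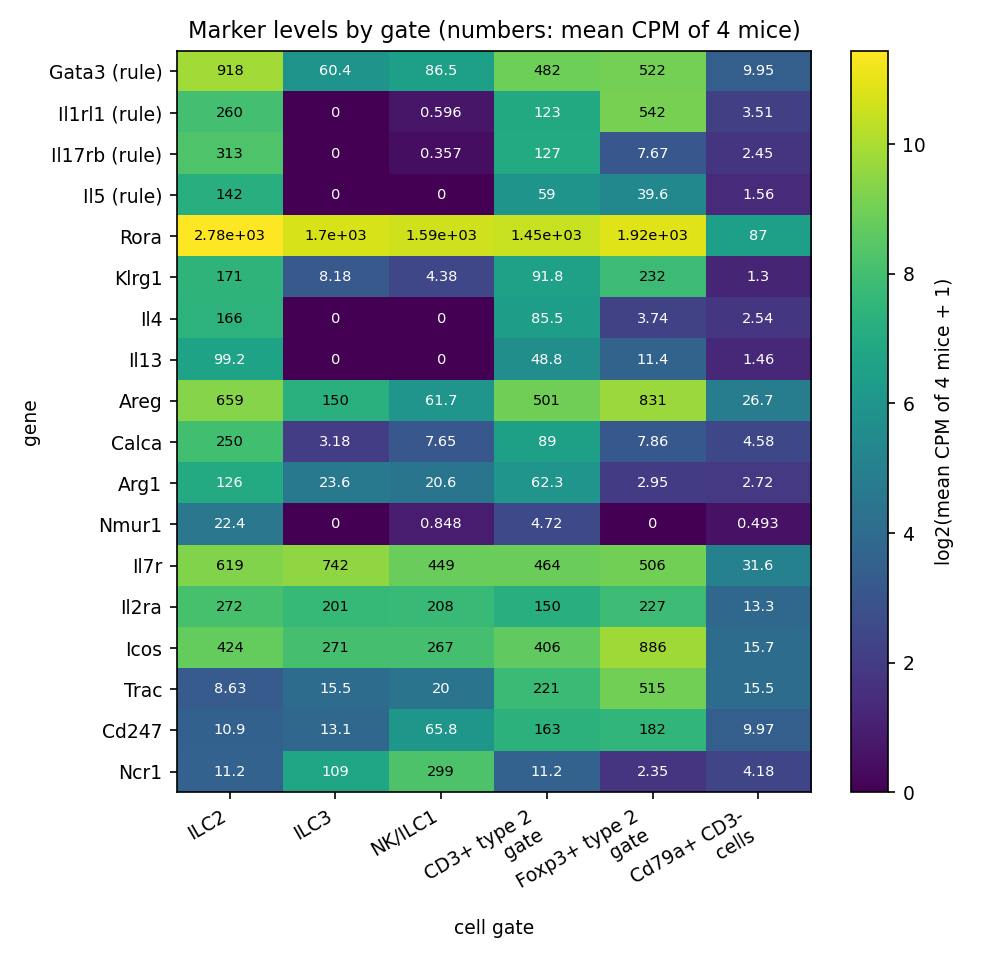
Mean level over 4 mice (printed in CPM, coloured by log2 of the level plus 1) of ILC2 genes and of genes of other lineages (rows) in 6 sets of gated cells (columns). Klrg1, Calca and Nmur1 were highest in ILC2 among the innate sets, Il4 and Il13 were at 0 in ILC3 and in NK cells and ILC1, and Trac stood at 8.63 in ILC2, against 221 in the CD3+ cells of the type 2 gate.

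The 4 rule genes describe how the cells were picked. Gata3 stood at 981 and 1026 CPM in the Trpv1-ADC mice, against 783 and 882 CPM in the CTRL mice. Il1rl1 stood at 175 and 160 CPM in the Trpv1-ADC mice, against 384 and 322 CPM in the CTRL mice. Il17rb stood at 364 and 423 CPM in the Trpv1-ADC mice, against 222 and 242 CPM in the CTRL mice. Among the cells so picked, Il1rl1 was lower and Il17rb higher in both Trpv1-ADC mice than in either CTRL mouse. A cell without Il1rl1 and Il5 could enter only through Il17rb, so the rule itself ties these levels together. Groups also lay apart for 43.8% of all genes tested. Il5, whose product drives eosinophils, stood at 55.8 and 72.9 CPM in the Trpv1-ADC mice, against 182 and 258 CPM in the CTRL mice, with no overlap. In the ILC2 with fewer than 10 stromal UMIs, Il5 stood at 62.1 and 78.4 CPM in the Trpv1-ADC mice, against 266 and 247 CPM in the CTRL mice. In the same cells Il1rl1 stood at 204 and 162 CPM in the Trpv1-ADC mice, against 552 and 397 CPM in the CTRL mice. Il17rb there stood at 395 and 449 CPM in the Trpv1-ADC mice, against 298 and 253 CPM in the CTRL mice.

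The cells just inside and just outside the rule differed more at some of its edges than at others. Of the 172 cells, 22 held exactly 1 Gata3 UMI and 31 exactly 1 UMI of the 3 other genes together. The 31 had 2452 CPM of Rora and 103 CPM of Klrg1. The 46 cells that failed only on Gata3 had 883 CPM of Rora and 35.8 CPM of Klrg1. The 395 cells that failed only on Il1rl1, Il17rb and Il5 had 1298 CPM of Rora and 5.73 CPM of Klrg1. The 29 cells kept out by a single UMI of Cd3e or Cd3d had 2230 CPM of Rora, 207 CPM of Klrg1 and 76.9 CPM of Trac. The 65 cells with 2 or more such UMIs had 270 CPM of Trac.

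By receptor, the ILC2 fell into sets that share no cell. UMIs of both Il1rl1 and Il17rb were found in 73 cells (42.4%), of Il17rb without Il1rl1 in 61 (35.5%), of Il1rl1 without Il17rb in 29 (16.9%), and 9 cells entered through Il5 alone. Cells with Il17rb but no Il1rl1 made up 37.8% and 56.3% of ILC2 in the Trpv1-ADC mice, against 34.8% and 22.8% in the CTRL mice. Cells with both made up 40.5% and 34.4% in the Trpv1-ADC mice, against 45.7% and 45.6% in the CTRL mice. Cells with an Il5 UMI made up 24.3% and 9.38% in the Trpv1-ADC mice, against 50.0% and 49.1% in the CTRL mice. Cells with neither Il5 nor Il13 were the majority in the Trpv1-ADC mice, 56.8% and 81.3%, against 32.6% and 35.1% in the CTRL mice. Since a UMI of Il1rl1, Il17rb or Il5 is part of the rule, these shares carry no test.

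Within the receptor sets, some genes differed in level. Cells with both receptors had 240 CPM of Il5, 146 CPM of Il13 and 139 CPM of Arg1 over the 4 mice. Cells with Il17rb but no Il1rl1 had 76.6 CPM of Il5, 70.6 CPM of Il13 and 52.4 CPM of Arg1. By mouse, Il13 went the other way in Trpv1-ADC 2 (0 CPM with both receptors, 36.0 CPM with Il17rb alone). Arg1 did so in CTRL 2 (104 and 120 CPM). Cells with Il1rl1 but no Il17rb had 144 CPM of Il5, 133 CPM of Il13 and 376 CPM of Arg1. Over the 4 mice together, Il4 was close, 166 CPM in cells with both receptors and 161 CPM in cells with Il17rb alone. By mouse it was not, and the direction varied. With both receptors it stood at 340 and 89.7 CPM in the Trpv1-ADC mice and at 79.5 and 187 CPM in the CTRL mice. With Il17rb alone it stood at 157 and 270 CPM in the Trpv1-ADC mice and at 105 and 152 CPM in the CTRL mice. Rora over the 4 mice together was close, 2785 CPM with both receptors and 2845 CPM with Il17rb alone. The sets were cut from the rule genes and hold few cells per mouse, so these levels are a description.

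The first comparison asks whether ILC2 were more or less frequent in Trpv1-ADC mice. ILC2 made up 0.778% and 0.635% of assigned cells in the Trpv1-ADC mice, against 0.899% and 1.23% in the CTRL mice. The exact (Clopper-Pearson) 95% binomial intervals, which cover counting error only, ran from 0.548% to 1.07% in Trpv1-ADC 1 and from 0.435% to 0.895% in Trpv1-ADC 2. They ran from 0.659% to 1.20% in CTRL 1 and from 0.929% to 1.58% in CTRL 2. The means were 0.706% ± 0.101 in Trpv1-ADC mice and 1.06% ± 0.231 in CTRL mice (SD, n = 2 each), a difference of -0.356 percentage points. Both Trpv1-ADC mice lay below both CTRL mice, so the two-sided exact permutation test gave p = 0.3333, and 2 against 2 mice cannot give a smaller one. A difference beyond the spread between mice was therefore not shown.

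The share of stroma-marked cells moved with this result. With cells of 10 or more stromal UMIs left out of all sets, the difference was -0.219 points, the groups overlapped and the exact permutation p was 0.667. Leaving out every cell with more than 2 such UMIs left -0.0575 points (exact permutation p = 1). Among gated innate lymphoid cells alone (ILC2, ILC3, and NK cells with ILC1), ILC2 made up 21.5% and 19.0% in the Trpv1-ADC mice, against 24.3% and 30.2% in the CTRL mice. That is a difference of -6.97 percentage points, with the same exact permutation p of 0.3333. It was -4.67 points without cells of 10 or more stromal UMIs and -2.36 points without those of more than 2, with overlap of the groups both times (exact permutation p = 0.667).

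**Figure D3:**
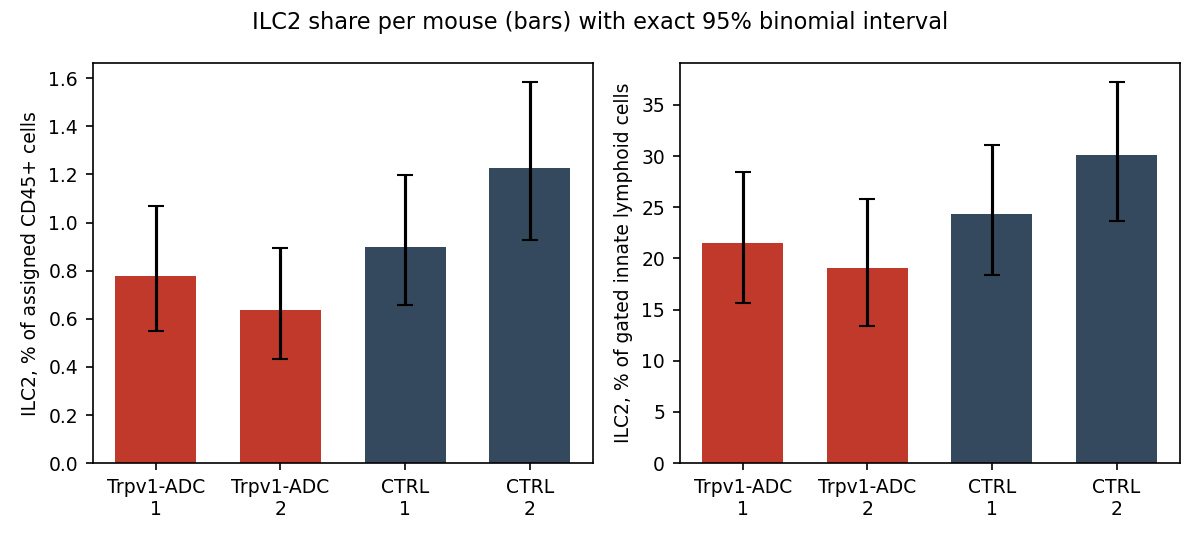
Share of ILC2 per mouse, as a percentage of all assigned CD45+ cells (left) and of gated innate lymphoid cells (right). Bars are mice, Trpv1-ADC before CTRL, and lines are exact 95% binomial intervals. The Trpv1-ADC bars are lower than the CTRL bars in both panels, 0.778% and 0.635% in the Trpv1-ADC mice against 0.899% and 1.23% in the CTRL mice in the left panel, where only the intervals of Trpv1-ADC 2 and CTRL 2 do not overlap.

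The second comparison asks which ILC2 genes differed between Trpv1-ADC and CTRL mice, with the UMIs of each mouse summed. Of 5473 genes tested with edgeR's quasi-likelihood test, 0 passed a Benjamini-Hochberg adjusted p of 0.05 (0%). At an unadjusted p under 0.05 there were 514 genes (9.39%), and DESeq2 called 5, all lower in Trpv1-ADC mice. The mice of the groups did not overlap for 43.8% of the genes tested, so lack of overlap alone marks nothing here. Values below are given as values, with the edgeR p where it helps.

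Leaving aside the rule genes, the 9 genes with the smallest unadjusted p were all lower in Trpv1-ADC ILC2. Pcdh9, Tenm3, Bmp4, Fn1, Mfap4, Bmp5, Rbms3 and Gja1 include genes of extracellular matrix (fibronectin, Fn1, and the microfibril protein Mfap4), bone morphogenetic proteins and a gap junction protein. Fn1 stood at 0 and 4.86 CPM in the Trpv1-ADC mice, against 173 and 89.1 CPM in the CTRL mice. Bmp4 stood at 0 CPM in both Trpv1-ADC mice, against 130 and 75.4 CPM in the CTRL mice. Both were higher in the CTRL mice, which also held more of the stroma-marked cells described above, and the part of those cells in these values was not tested. Of the 10 genes named between the groups, rule genes included, 8 had no value in some of the 16 alternatives run. Stab2, a scavenger receptor gene, stood at 81.8 and 112 CPM in the Trpv1-ADC mice, against 289 and 363 CPM in the CTRL mice (log2 fold change -1.74 ± 0.28, edgeR adjusted p = 0.196).

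With the cells of 10 or more stromal UMIs left out, an alternative chosen after the data were seen, 2 genes passed. The transcriptional repressor gene Hes1 was higher in Trpv1-ADC ILC2, with a log2 fold change of 1.36 ± 0.20 (edgeR adjusted p = 0.0303), and Stab2 was lower, with -2.23 ± 0.28 (edgeR adjusted p = 0.017). In all ILC2, Hes1 stood at 1747 and 1794 CPM in the Trpv1-ADC mice, against 1021 and 961 CPM in the CTRL mice, without overlap.

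Among the secreted products of ILC2 other than Il5, 14 of 20 listed genes had enough UMIs to test and 0 passed. Their median log2 fold change was 0.33, against 0.02 over all genes tested, with 8 of the 14 positive. Il13, the cytokine of goblet cell and smooth muscle responses, stood at 70.6 and 19.4 CPM in the Trpv1-ADC mice, against 94.2 and 212 CPM in the CTRL mice. Both Trpv1-ADC values were below both CTRL values, with a log2 fold change of -1.68 ± 0.60 (edgeR adjusted p = 0.475). Il4, which promotes type 2 T cells and IgE, lay the other way, at 212 and 190 CPM in the Trpv1-ADC mice, against 103 and 160 CPM in the CTRL mice (log2 fold change 0.63 ± 0.29, edgeR adjusted p = 0.553). Neither passed the threshold, and for neither did the groups overlap.

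Calca, which encodes calcitonin and the neuropeptide CGRP, stood at 201 and 156 CPM in the Trpv1-ADC mice, against 334 and 308 CPM in the CTRL mice. Its log2 fold change was -0.83 ± 0.24 (edgeR adjusted p = 0.356), and the groups did not overlap. Areg stood at 684 and 540 CPM in the Trpv1-ADC mice, against 698 and 715 CPM in the CTRL mice (log2 fold change -0.19 ± 0.20). Csf2, the growth factor GM-CSF, stood at 89.2 and 117 CPM in the Trpv1-ADC mice, against 117 and 247 CPM in the CTRL mice. Arg1, the arginine-degrading enzyme of tissue ILC2, stood at 100 and 107 CPM in the Trpv1-ADC mice, against 135 and 162 CPM in the CTRL mice. Lif, an IL-6 family cytokine, stood at 100 and 146 CPM in the Trpv1-ADC mice, against 47.1 and 31.97 CPM in the CTRL mice (log2 fold change 1.63 ± 0.39, edgeR adjusted p = 0.253).

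The remaining secreted products were low or uneven between mice. Bmp7 stood at 55.8 and 48.6 CPM in the Trpv1-ADC mice, against 26.9 and 38.8 CPM in the CTRL mice. Hbegf stood at 29.7 and 131 CPM in the Trpv1-ADC mice, against 15.7 and 18.3 CPM in the CTRL mice. Tnf stood at 29.7 and 29.2 CPM in the Trpv1-ADC mice, against 11.2 and 16.0 CPM in the CTRL mice. For each of these 3 the groups did not overlap, as for 43.8% of all genes tested. Without cells of 10 or more stromal UMIs this held for Bmp7 and Tnf but not for Hbegf. Hbegf there stood at 0 and 110 CPM in the Trpv1-ADC mice, against 15.7 and 6.41 CPM in the CTRL mice. Il2, Ccl1, Ccl5 and Xcl1 overlapped between the groups, and Xcl1 ran from 9.72 CPM in Trpv1-ADC 2 to 193 CPM in Trpv1-ADC 1. Il6, Il10, Penk and Tph1 had too few UMIs to test, and Il3 and Il9 had none.

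**Figure D4:**
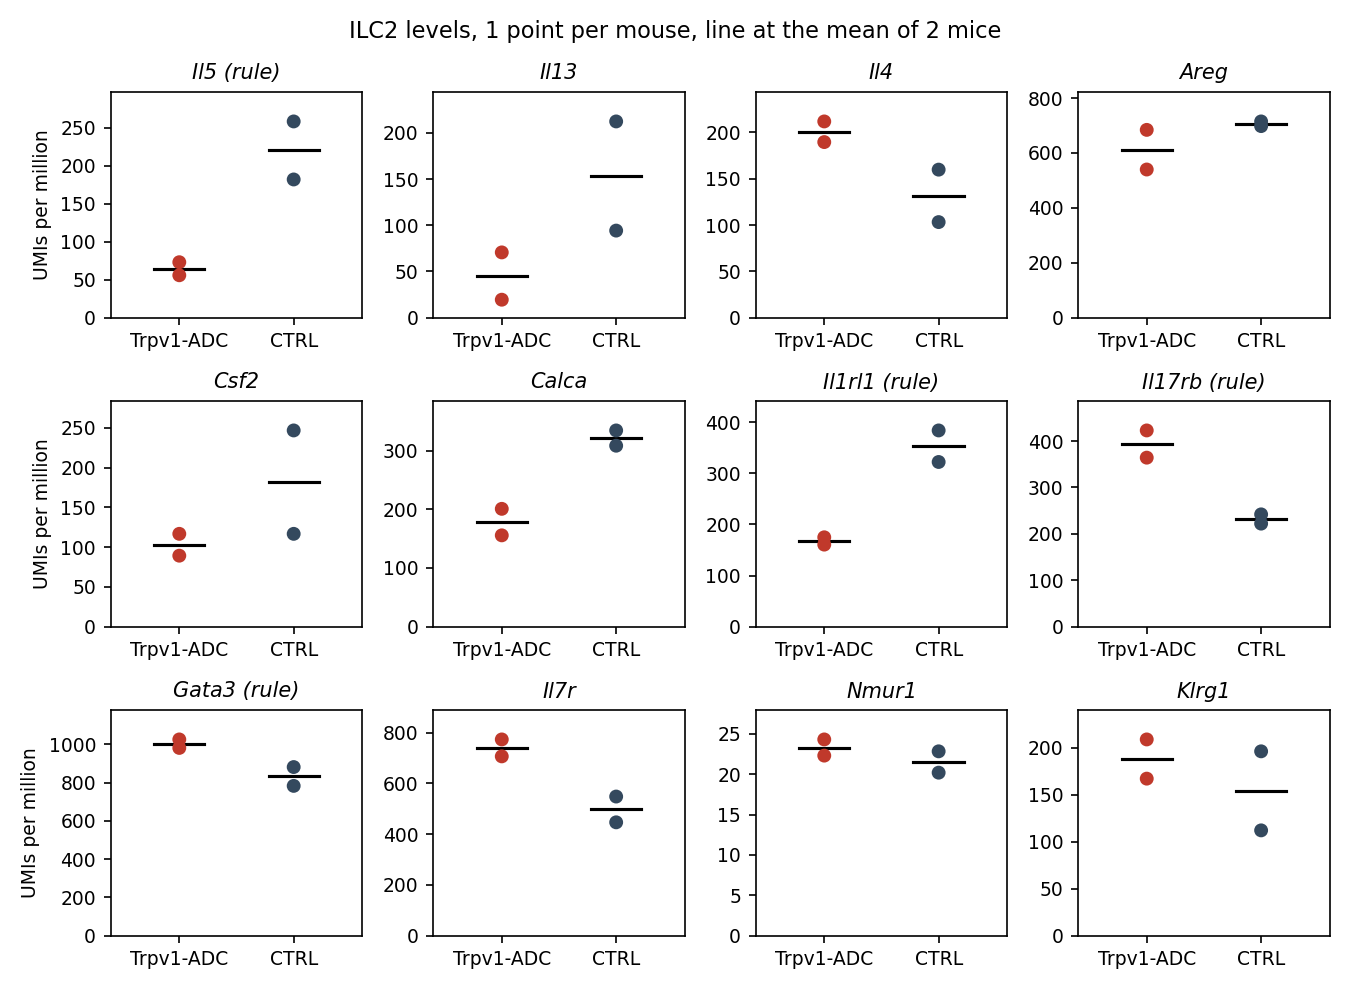
Levels of 12 genes in ILC2 in CPM (y axes start at 0), 1 point per mouse, Trpv1-ADC left of CTRL, with a line at the mean of 2 mice. Il5, Il13, Calca and Il1rl1 were lower and Il4, Il17rb and Il7r higher in both Trpv1-ADC mice than in either CTRL mouse, while Nmur1 lay between 20.2 and 24.3 in all 4. Il5, Il1rl1, Il17rb and Gata3 are genes of the rule, so their levels only describe the cells picked.

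Receptors for cytokines were next. Without the rule genes, 21 of 27 listed genes could be tested and 0 passed, with a median log2 fold change of 0.03. Il7r stood at 706 and 773 CPM in the Trpv1-ADC mice, against 447 and 548 CPM in the CTRL mice (log2 fold change 0.59 ± 0.20, edgeR adjusted p = 0.431). Il18r1, a chain of the IL-18 receptor, stood at 279 and 185 CPM in the Trpv1-ADC mice, against 103 and 174 CPM in the CTRL mice. Il1rap, the chain that pairs with Il1rl1, stood at 22.3 and 4.86 CPM in the Trpv1-ADC mice, against 42.6 and 36.5 CPM in the CTRL mice. The groups did not overlap for these 3 genes. Il2ra and Icos, markers of activated lymphocytes, overlapped between the groups.

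Neuropeptide and neurotransmitter receptors bear on the question of nerve signals. Of 26 listed genes, 10 had no UMI in ILC2: Nmur2, Vipr1, Tacr1, Chrna7, Drd1, Drd2, Npy1r, Galr3, Sstr2 and Oprm1. Only 6 had enough UMIs to test and 0 of them passed. Nmur1 was found in 16.9% of ILC2, against 0.288% of Cd79a+ CD3- cells, and stood at 22.3 and 24.3 CPM in the Trpv1-ADC mice and at 20.2 and 22.8 CPM in the CTRL mice. These 4 values rest on 30 UMIs in all.

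The parts of the CGRP and adrenomedullin receptors were present. Ramp3 stood at 309 and 204 CPM in the Trpv1-ADC mice, against 184 and 349 CPM in the CTRL mice, and had a UMI in 63.4% of ILC2. Calcrl, the shared receptor chain, stood at 160 and 175 CPM in the Trpv1-ADC mice, against 224 and 114 CPM in the CTRL mice. It was found in 37.8% of ILC2 and in 23.7% of Cd79a+ CD3- cells. Ramp1, which with Calcrl forms the CGRP receptor, stood at 59.5 and 29.2 CPM in the Trpv1-ADC mice, against 47.1 and 59.4 CPM in the CTRL mice. In all ILC2 the groups overlapped for all 3. Without the stroma-marked cells, Ramp1 stood at 26.6 and 31.3 CPM in the Trpv1-ADC mice, against 62.7 and 54.5 CPM in the CTRL mice. Calcrl there stood at 164 and 131 CPM in the Trpv1-ADC mice, against 125 and 64.1 CPM in the CTRL mice. For Ramp1 and Calcrl the groups did not overlap there, while for Ramp3 they did. Neither Ramp1 nor Calcrl was among the genes that passed there.

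Ret, the receptor tyrosine kinase for glial-derived neurotrophic factors, stood at 186 and 282 CPM in the Trpv1-ADC mice, against 114 and 130 CPM in the CTRL mice (log2 fold change 0.94 ± 0.30, edgeR adjusted p = 0.399). Vipr2, a receptor for vasoactive intestinal peptide, ran from 6.85 CPM in CTRL 2 to 66.9 CPM in Trpv1-ADC 1, with overlap.

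The remaining lists gave 0 calls between the groups as well. Klrg1 stood at 167 and 209 CPM in the Trpv1-ADC mice, against 112 and 196 CPM in the CTRL mice. Rora stood at 2952 and 2397 CPM in the Trpv1-ADC mice, against 2547 and 3234 CPM in the CTRL mice, and Thy1 at 85.5 and 122 CPM in the Trpv1-ADC mice, against 108 and 128 CPM in the CTRL mice. P2rx7, the receptor for extracellular ATP, stood at 44.6 and 82.7 CPM in the Trpv1-ADC mice, against 18.0 and 13.7 CPM in the CTRL mice (log2 fold change 1.96 ± 0.50, edgeR adjusted p = 0.294). Among cAMP response genes, 17 of the 24 tested had a positive fold change and the median was 0.25, against 2825 of 5469 and 0.02 over all genes outside the rule. Ribosomal protein genes leaned the same way, with 73 of 81 positive and a median of 0.24, as did interferon response genes, with 8 of 9 positive and a median of 0.37. Of the ILC3 markers tested in ILC2, 1 of 6 was positive, with a median of -0.85, and 0 passed. An unadjusted edgeR p under 0.05 was found for 3 of 6, against 9.39% of all genes tested. The groups did not overlap for 5 of 6, against 43.8% of all genes tested. Sik1, a kinase gene induced by cAMP, stood at 394 and 472 CPM in the Trpv1-ADC mice, against 265 and 267 CPM in the CTRL mice.

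Cell cycle genes were few and low. All 7 tested had a negative fold change, with a median of -0.94, and 0 passed the threshold. Top2a and Mki67, which are made in dividing cells, were at 0 in both Trpv1-ADC mice. In the CTRL mice Top2a stood at 51.6 and 29.7 CPM and Mki67 at 15.7 and 11.4 CPM. Top2a was found in 8 of the 172 ILC2 (4.65%) and in 3.06% of ILC3. The heat shock list summed to 10674 and 20985 CPM in the Trpv1-ADC mice, against 9487 and 12748 CPM in the CTRL mice, so that in ILC2 Trpv1-ADC 2 stood apart from the other 3. In ILC3 it summed to 27530 and 21492 CPM in the Trpv1-ADC mice, against 9389 and 11471 CPM in the CTRL mice. In NK cells and ILC1 it summed to 18722 and 17759 CPM in the Trpv1-ADC mice, against 9828 and 13433 CPM in the CTRL mice. Both Trpv1-ADC mice were thus higher in these 2 sets.

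Whether the difference between the groups was particular to ILC2 was tested against ILC3, the innate cells known for making IL-22. The interaction of cell type and group called 0 of 5375 genes with edgeR (0%), 300 at an unadjusted p under 0.05, and DESeq2 called 2. For Il7r the interaction was 0.98 ± 0.34 on the log2 scale (edgeR adjusted p = 0.749). The ILC3 numbered 26 and 31 in the Trpv1-ADC mice and 22 and 19 in the CTRL mice.

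The third comparison sets ILC2 against ILC3 of the same 4 mice, with the mouse as a block and the genes of both gates left out. Of 4227 genes, 520 (12.3%) passed by edgeR's adjusted p, 302 higher in ILC2 (7.14%) and 218 lower (5.16%). The counts of some gene lists are given below and those of others here. Of 24 immediate early genes tested, 2 were higher and 3 lower. Of 23 surface, homing and retention genes, 4 were higher and 2 lower, and of 23 cAMP response genes, 2 and 1. Lower were 1 of 15 heat shock genes and 2 of 8 interferon response genes, with 0 higher. The same held for 1 of 4 ILC3 markers, 2 of 3 NK and ILC1 markers and 1 of 3 myeloid markers. Of 4 cell cycle genes, 1 was higher and 0 lower.

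Among the secreted products 4 of 7 tested genes were higher and 0 lower, with a list median of 2.52 on the log2 scale, against -0.02 over all genes tested. Il4 had 212 UMIs in ILC2 and 0 in ILC3, at least 47.1-fold higher, with 3 counts over the group as the floor. Il13, with 158 UMIs against 0, was at least 35.1-fold higher on the same floor, and was not among the genes tested after the filter on low counts. Calca averaged 250 ± 85.3 CPM in ILC2 and 3.18 ± 3.71 CPM in ILC3 (SD, n = 4 mice each), a log2 fold change of 6.05 ± 0.51 (edgeR adjusted p = 0.000208). Arg1 averaged 126 ± 28.3 CPM in ILC2 and 23.6 ± 15.8 CPM in ILC3, with a log2 fold change of 2.52 ± 0.41 (edgeR adjusted p = 0.00449). Csf2 averaged 142 ± 70.7 CPM in ILC2 and 39.1 ± 27.0 CPM in ILC3, with a log2 fold change of 1.98 ± 0.36 (edgeR adjusted p = 0.00729). For Areg the log2 fold change was 2.96 ± 0.90 and did not pass (edgeR adjusted p = 0.107). In ILC3 it ran from 4.83 CPM in Trpv1-ADC 1 to 485 CPM in CTRL 1, where 116 UMIs came from 4 cells. The epithelial and tuft cell marker list summed to 5088 CPM in ILC3 of CTRL 1. It summed to 102 and 52.6 CPM in ILC3 of the Trpv1-ADC mice and to 74.2 CPM in CTRL 2. The source of the Areg UMIs in CTRL 1 was not tested.

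Surface receptors set the same cells apart. Klrg1 averaged 171 ± 43.1 CPM in ILC2 and 8.18 ± 7.24 CPM in ILC3 (log2 fold change 4.32 ± 0.45, edgeR adjusted p = 0.000516). Ccr4, a chemokine receptor of type 2 lymphocytes, averaged 70.4 ± 12.8 CPM in ILC2 and 1.43 ± 2.85 CPM in ILC3 (log2 fold change 5.53 ± 0.71). Il10ra, the IL-10 receptor, averaged 54.8 ± 14.1 CPM in ILC2 and 1.92 ± 2.24 CPM in ILC3. It was found in 25.6% of ILC2, below the 35.5% of Cd79a+ CD3- cells. Integrin alpha 4 (Itga4), the costimulator Tnfrsf18 and the inhibitory receptor Cd200r1 were also higher. Of 15 cytokine receptors tested, 2 were higher (Il10ra and Tnfrsf18) and 3 lower. The lower ones were Il18r1 (log2 fold change -0.92 ± 0.23), the interferon gamma receptor gene Ifngr1 (-1.05 ± 0.20) and Il2rb, a chain of the IL-2 and IL-15 receptors (-1.12 ± 0.21). Il9r, at least 15.3-fold higher, and Nmur1, at least 6.67-fold higher, had no UMI in ILC3. Tph1, the serotonin-forming enzyme, was at least 8.01-fold higher, but 73.1 CPM of it came from CTRL 2 and at most 11.2 CPM from any other mouse.

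Neural receptors went both ways. Ret averaged 178 ± 75.7 CPM in ILC2 and 13.8 ± 14.5 CPM in ILC3 (log2 fold change 3.76 ± 0.42, edgeR adjusted p = 0.000781). Ramp1 averaged 48.8 ± 14.3 CPM in ILC2 and 148 ± 20.3 CPM in ILC3 (log2 fold change -1.57 ± 0.25, edgeR adjusted p = 0.00428). It was lower in ILC2 in each of the 4 mice. Calcrl (0.70 ± 0.27, edgeR adjusted p = 0.131) and Ramp3 (0.02 ± 0.39, edgeR adjusted p = 0.988) did not pass.

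Of the lineage transcription factors, 10 of 23 tested were higher in ILC2 and 3 lower. Rora averaged 2782 ± 381 CPM in ILC2 and 1701 ± 585 CPM in ILC3 (log2 fold change 0.80 ± 0.15, edgeR adjusted p = 0.00762). Tox, needed for the development of innate lymphoid cells, had a log2 fold change of 2.11 ± 0.16, Ikzf3 (Aiolos) 2.18 ± 0.20, Ahr, the sensor of dietary and microbial ligands, 1.78 ± 0.27, and Pparg, a fatty acid-sensing receptor, 2.42 ± 0.55. Id2, Bcl11b, Lmo4, Batf and Runx1 were higher as well. Tcf7, Maf and Nfil3 were lower, with log2 fold changes of -0.91 ± 0.22, -0.66 ± 0.17 and -0.80 ± 0.22.

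In metabolism and lipid mediators the list of 13 tested metabolic genes had 7 higher and 2 lower. Slc7a8, an amino acid transporter, averaged 104 ± 8.07 CPM in ILC2 and 1.43 ± 2.85 CPM in ILC3 (log2 fold change 6.10 ± 0.61). Dgat2, an enzyme of triglyceride synthesis, had a log2 fold change of 3.52 ± 0.58, while its counterpart Dgat1 was lower, with -1.52 ± 0.25. Hif1a, Acsl4 and Ldha were higher. Odc1, the first enzyme of polyamine synthesis from ornithine, averaged 853 ± 177 CPM in ILC2 and 2872 ± 739 CPM in ILC3 (log2 fold change -1.70 ± 0.15). Lpcat2, Ptger4 and Cysltr1, of platelet-activating factor synthesis and of prostaglandin E2 and leukotriene sensing, were higher, 3 of 5 tested lipid mediator genes.

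Of NF-kB and cytokine feedback genes 4 of 20 tested were higher, Nfkb1 (log2 fold change 1.49 ± 0.17), Rel, Nfkbiz and the feedback inhibitor Socs2, and 0 were lower. MHC class II presentation genes were lower in 4 of 5 tested. Cd74, the invariant chain, averaged 296 ± 83.5 CPM in ILC2 and 853 ± 181 CPM in ILC3 (log2 fold change -1.50 ± 0.16). H2-Aa, H2-Ab1 and H2-Eb1 had log2 fold changes of -1.47 ± 0.26, -1.07 ± 0.22 and -1.22 ± 0.30. Irf7 and Bst2, of the interferon response, and Thy1, a surface protein of T cells and innate lymphoid cells, were lower too. Of 16 alternatives the call against ILC3 was lost in 8 for Nfil3, in 7 for Ldha and in 6 each for Ptger4, Tcf7, Maf, Rel and H2-Eb1. Cytosolic ribosomal protein genes were higher in 47 of 81 tested and lower in 0, with a median of 0.51.

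Among T cell markers 4 of 6 tested were higher in ILC2 than in ILC3, among them Trbc1, Trbc2 and Cd28. Trbc1 averaged 349 ± 38.0 CPM in ILC2 and 93.7 ± 42.4 CPM in ILC3, although neither set held a UMI of Cd3e or Cd3d. Of the stromal list 0 of 6 tested genes were called, and the cells with 10 or more stromal UMIs were 14.0% of ILC2 and 18.4% of ILC3.

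Beside Il4, Slc7a8, Calca and Ccr4, described above, the 10 largest rises included genes outside the lists. Dach2, a transcription cofactor, averaged 207 ± 126 CPM in ILC2 and 1.21 ± 2.42 CPM in ILC3. Kcnq5, a voltage-gated potassium channel, averaged 1130 ± 182 CPM in ILC2 and 14.9 ± 22.9 CPM in ILC3 (log2 fold change 6.32 ± 0.60). Ptpn13, a protein tyrosine phosphatase, averaged 723 ± 166 CPM in ILC2 and 18.4 ± 3.17 CPM in ILC3 (log2 fold change 5.26 ± 0.24). Eepd1 and Chdh followed, and the transcript Gm13219 was at least 23.4-fold higher. Lower in ILC2 were Mapk10, Fstl4, Apol7b, Ppp1r14c, Dscam, Car2, Arhgef28, Tmcc3, Stom and Kcnk1. Dscam, a cell adhesion molecule best known from neurons, averaged 35.9 ± 8.48 CPM in ILC2 and 890 ± 216 CPM in ILC3 (log2 fold change -4.51 ± 0.22). Mapk10, a JNK kinase, averaged 0.561 ± 1.12 CPM in ILC2 and 129 ± 69.4 CPM in ILC3.

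**Figure D5:**
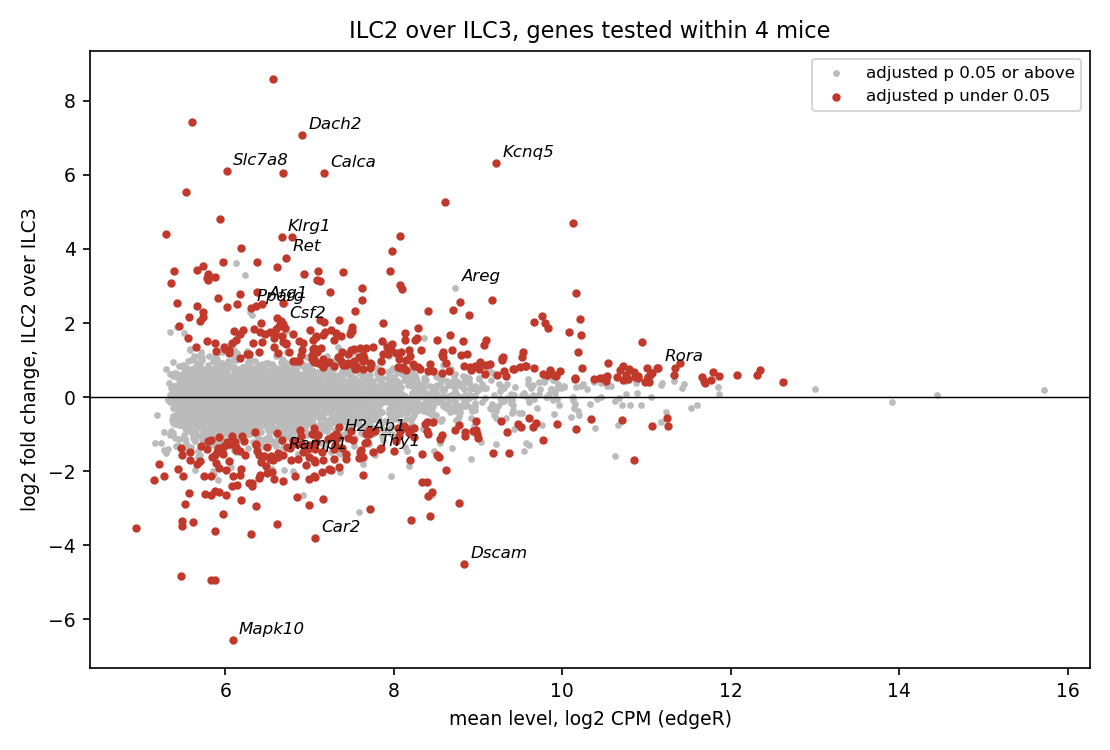
Log2 fold change of ILC2 over ILC3 (y) against the mean level in log2 CPM as edgeR fits it (x), 1 point per tested gene, coloured where the adjusted p is under 0.05. Calca, Klrg1, Ret, Kcnq5 and Dach2 stand among the 302 higher genes and Dscam, Car2 and Mapk10 among the 218 lower ones. A fitted value of a gene at 0 in ILC3 depends on the prior count and is no bound.

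The last comparison sets ILC2 against the 94 CD3+, Foxp3-negative cells that pass the same type 2 gate. They numbered 14 and 19 in the Trpv1-ADC mice and 40 and 21 in the CTRL mice. Their median depth was 9106.5 UMIs, against 6452 in ILC2. Of the 94, 29 held a single UMI of Cd3e or Cd3d and 65 held 2 or more. The 29 had 2230 CPM of Rora, 207 CPM of Klrg1 and 76.9 CPM of Trac. The 65 had 1331, 55.1 and 270 CPM of the same genes. The part of the 29 cells in the results below was not tested. Of 4003 genes, 194 (4.85%) passed by edgeR's adjusted p, 87 higher in ILC2 (2.17%) and 107 lower (2.67%).

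Calca averaged 250 ± 85.3 CPM in ILC2 and 89.0 ± 61.6 CPM in the CD3+ cells (log2 fold change 1.56 ± 0.25, edgeR adjusted p = 0.00285). Il4 averaged 166 ± 47.1 CPM in ILC2 and 85.5 ± 43.1 CPM in the CD3+ cells (log2 fold change 1.05 ± 0.25, edgeR adjusted p = 0.0285). Ret was higher in ILC2, with a log2 fold change of 1.63 ± 0.31 (edgeR adjusted p = 0.00644). Rora, Lmo4, Ikzf3 and Pparg were the 4 higher of 24 transcription factors tested. Pparg averaged 110 ± 23.0 CPM in ILC2 and 29.2 ± 16.9 CPM in the CD3+ cells (log2 fold change 1.90 ± 0.34). Il2ra, the tissue homing receptor Cxcr6, Epas1 and Cysltr1 were higher too. Of 16 alternatives the call was lost in 10 for Cxcr6, 9 for Cysltr1, 8 for Il2ra, 8 for Il4 and 4 for Epas1. Areg (0.52 ± 0.34, edgeR adjusted p = 0.613), Il13 (0.92 ± 0.50, edgeR adjusted p = 0.494), Klrg1 (0.89 ± 0.28, edgeR adjusted p = 0.106) and Arg1 (1.12 ± 0.33, edgeR adjusted p = 0.0793) did not pass.

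Lower in ILC2 were, first, genes of the T cell receptor complex, 9 of 12 tested T cell markers, which the CD3 rule draws near. Trac averaged 8.63 ± 7.34 CPM in ILC2 and 221 ± 53.6 CPM in the CD3+ cells (log2 fold change -4.80 ± 0.43). Themis, a thymocyte signalling protein, Cd247, Cd5, Cd3g and Lck followed. Trbc1 did not pass (log2 fold change -0.36 ± 0.19, edgeR adjusted p = 0.447). Lef1 and Tcf7, partner factors of Wnt signalling in naive T cells, had log2 fold changes of -3.94 ± 0.27 and -1.36 ± 0.24. S1pr1, the receptor for leaving tissue, averaged 26.5 ± 19.0 CPM in ILC2 and 173 ± 36.6 CPM in the CD3+ cells (log2 fold change -2.88 ± 0.44). Ccl5, Il21r, Ctla4, Stat5a and Stat5b were lower as well. Genes with the largest rises were Eng, Cntn1, Galc, Pparg, Rab27b, Magi1, Arhgap32, Filip1l, Ppp1r12b and Basp1, with log2 fold changes between 1.64 and 2.25. Of these, the call for Arhgap32 was lost in 8 alternatives, that for Basp1 in 7 and that for Cntn1 in 6.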

How the data were processed

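The deposited gene matrix holds unnormalized UMI counts, and the deposited hashtag matrix unnormalized counts, of each barcode, judged from their whole-number values. The submitters' processing notes name Cell Ranger, Seurat and mm10. Their versions are not given in the sources used here. Nothing states whether a hashtag count is a UMI or a read. Both 3' and 5' chemistry appear in the labels. Barcodes (all 23063 shared by both libraries) needed at least 500 UMIs and at most 10% mitochondrial UMIs (22734), and a top tag count of at least 10 and at least 3 times the next (19571). Tag pairs across mice fell out by this ratio where their counts were alike. A pair with unlike tag counts can pass it, and no doublet caller was run. The highest count of the next tag in an ILC2 was 144 in Trpv1-ADC 1, 69 in Trpv1-ADC 2, 495 in CTRL 1 and 283 in CTRL 2.

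UMIs were summed per mouse and gate and tested with edgeR 4.0.16 (TMM, filterByExpr, robust quasi-likelihood, Benjamini-Hochberg, 0.05) in R 4.3.3, with DESeq2 1.42.0 as an alternative. The Trpv1-ADC comparison had no block, and same-numbered mice of the groups are not known to be pairs. ILC2 against ILC3 or CD3+ cells had the mouse as a block. Fits were tested on simulated data. The fit between the groups included the rule genes, whose tests are not reported. ILC3 had Il22, Il23r or Il1r1 and 1 further gene that is not reported here, NK cells and ILC1 had Ncr1 and Klrb1c, Eomes or Tbx21, both without the T, B, mast cell and macrophage genes. The ± after a fold change is its SE.

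Named against ILC3 or CD3+ cells are the 10 largest changes per direction past the threshold with all 4 mice alike, list members past it, and, between groups, the 10 smallest unadjusted p. Secreted products and neural receptors are described whatever their test, while other genes that meet the rule are described only in part. Members, gene lists and tests were chosen with earlier results of these data known. Hes1, and the values without stroma-marked cells, were chosen after the data were seen.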

Additional observations from a re-analysis of the deposited data

Results flagged for a closer look

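The hashtag matrix also lists 11 tags that the labels give to no mouse. They had 205 counts in ILC2, in 99 of the 172 cells and at most 7 in a cell, where the lowest own-tag count was 34. These were 0.137% of the hashtag counts of ILC2, against 0.127% over all barcodes. No control without tags was used here, and the source of these counts was not tested.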

How the results depend on the processing

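The difference in ILC2 share kept its sign under the alternatives run, but the groups overlapped for assigned cells without cells over 15000 UMIs (-0.281 points, exact permutation p = 0.667) and, for both denominators, without stroma-marked cells. Without 1 mouse in turn it ran from -0.519 to -0.192 percentage points of assigned cells and from -9.88 to -4.06 of gated innate cells. Calls between Trpv1-ADC and CTRL ILC2 numbered 0, and 0 to 114 without 1 mouse, with 114 without CTRL 2, 13 without CTRL 1 and 10 without Trpv1-ADC 2, where the lone mouse is assumed to vary like the others. They numbered 290 with no filter on low counts, 5 with DESeq2, 227 (32 higher, 195 lower) with the mouse number as a replicate block, and 2 without cells of 10 or more stromal UMIs, an alternative chosen after seeing the data. Same-numbered mice had a correlation of deviations of 0.210, over 2 pairs, so the numbers are not taken as a pairing. The interaction with ILC3, with 0 calls as reported, gave 2 to 104 without 1 mouse (104 without Trpv1-ADC 1, 2 without Trpv1-ADC 2, 13 without CTRL 1, 83 without CTRL 2), 100 with no filter, 11 without cells over 15000 UMIs, 2 with DESeq2 and 1 without cells holding a UMI of Cd3g, Trac, Cd4, Cd8a or Cd8b1. Against ILC3 the 520 calls became 1015 with no filter and 297 to 582 without 1 mouse (339 without Trpv1-ADC 1, 297 without Trpv1-ADC 2, 298 without CTRL 2), and 521 with no replicate block. Against CD3+ cells the 194 calls became 333 with no filter, 111 with DESeq2 and 78 to 198 without 1 mouse (96 without Trpv1-ADC 1, 78 without CTRL 2), and 183 with no replicate block. The cause of these changes was not tested. Among genes named by the rule, 70 of 82 against ILC3 and 39 of 49 against CD3+ cells had a value under all 16 alternatives. Of these, 39 and 17 stayed past the threshold in all of them, and 0 of the named genes changed sign in any alternative that gave a value. With 32 to 57 ILC2 per mouse, 1 UMI is worth 2.24 to 4.86 CPM, so low genes could not be compared. At this depth a missing call does not show that a gene was alike in both groups.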
